A study of Mus musculus with 4 samples.

Results

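The genes described here are Bmi1 and 8 further genes for subunits of Polycomb repressive complex 1 (PRC1), namely Pcgf2, Pcgf6, Rnf2, Ring1, Cbx2, Cbx7, Cbx8 and Phc1. They were read from every probe set that the array's annotation assigns to one of these symbols alone, which gave 21 of 45037 non-control probe sets. All 9 genes were found, among 18193 genes on the array with such a probe set. Of the 21, 17 passed the filter on dim signal and were tested, and each of the 9 genes kept at least 1. The arrays held RNA from basal cells of mouse skin, the progenitor layer of the epidermis, purified by flow cytometry at embryonic day 16. Ezh2cKO cells came from embryos with a conditional knockout of Ezh2, and WT cells from wild-type embryos, with mice of both groups on a mixed C57 and CD1 background. Each genotype had 2 Affymetrix expression arrays, given as replicates 1 and 2. The Cre driver and the deleted exons are not given in the sources used here, nor whether a sample was 1 embryo or a pool, so the spread behind each p-value may be technical.

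Polycomb proteins keep developmental genes silent through 2 complexes. PRC2, whose catalytic subunit is Ezh2, methylates histone H3 on lysine 27, and PRC1 places a single ubiquitin on histone H2A. Every PRC1 complex joins a RING ubiquitin ligase (Ring1 or Rnf2) to a Pcgf protein such as Bmi1. Canonical PRC1 adds a Cbx protein, whose chromodomain reads the PRC2 mark, and a Phc protein, which helps complexes cluster. Bmi1 is known for sustaining stem and progenitor cells by silencing the Ink4a/Arf locus (Cdkn2a). The comparison therefore shows the transcripts of the reading complex in cells with the gene for the writing enzyme knocked out.

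Ezh2 itself had signals of 661 and 1308 in Ezh2cKO cells, against 3336 and 3603 in WT cells. The genotypes did not overlap, and the log2 difference was -1.88 (SE 0.34). Among the lists of cell type markers, all 7 basal keratinocyte markers, which include Krt5, Krt14 and Trp63, passed the filter and their summed signal was 75580 to 78166 in Ezh2cKO and 73729 to 84290 in WT. By the brightest probe set, their genotypes overlapped except for Krt14 and the integrin Itga6. Krt14 was higher in both Ezh2cKO arrays, and Itga6 had 6327 and 9411 in Ezh2cKO and 11908 and 10639 in WT. The second tested probe set of Itga6 overlapped, at 2995 and 5253 in Ezh2cKO and 3919 and 5246 in WT. The other tested probe sets of Krt14 overlapped too. Markers of other cells were also present. The 7 endothelial markers summed to 4261 and 10282 in Ezh2cKO replicates 1 and 2 and to 8085 and 9635 in WT, and the 7 fibroblast markers to 45958 and 57523 in Ezh2cKO and 48595 and 54187 in WT. Of the 7 suprabasal markers, 3 had both Ezh2cKO arrays above the WT arrays and 0 had both below, where 8.55% and 8.45% of all genes were. Of these 3, Flg passed the filter only through Ezh2cKO, at 169 and 184, against 23.8 and 29.5 in WT, below the filter's 68.2. Ivl had 164 and 164 in Ezh2cKO, against 50.7, also below that level, and 128 in WT. The sums of the 7 were 55873 and 49097 in Ezh2cKO and 50784 and 43754 in WT. Xist, which is transcribed from the inactive X chromosome, was at 86.9 in Ezh2cKO replicate 1, while Ezh2cKO replicate 2 had 11333 and the WT arrays had 8669 and 10527. In RNA from many cells, fewer cells of a type and less RNA per cell cannot be told apart.

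Bmi1 lies on chromosome 2 (GRCm38.p6, chr2:18677018-18686629) and its paralog Pcgf2, also called Mel18, on chromosome 11 (chr11:97688821-97702434). Both take the same place beside the RING ligase. RefSeq's table of promoters (build GRCm38.p6) matched 8 of the 9 genes, with no entry used for Cbx2. The 250 bases before the start of each paralog are shown because these 2 genes can stand in for each other in the complex and only Bmi1 had both probe sets separated between the genotypes. Capitals mark CACGTG, the E-box that Myc and other bHLH factors bind. It reads the same on both strands, so 1 search covers both.
Bmi1, chr2:18676768-18677017, plus strand: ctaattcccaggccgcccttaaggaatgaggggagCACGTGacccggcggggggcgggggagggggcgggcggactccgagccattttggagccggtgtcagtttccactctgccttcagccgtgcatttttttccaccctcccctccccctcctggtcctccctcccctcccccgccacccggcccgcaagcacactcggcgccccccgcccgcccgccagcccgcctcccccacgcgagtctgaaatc
Pcgf2, chr11:97699649-97699898, minus strand: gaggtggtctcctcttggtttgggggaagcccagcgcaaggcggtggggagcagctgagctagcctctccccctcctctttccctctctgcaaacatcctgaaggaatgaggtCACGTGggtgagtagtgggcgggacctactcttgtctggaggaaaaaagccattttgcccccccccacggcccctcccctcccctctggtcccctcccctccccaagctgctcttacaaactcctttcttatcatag
The windows of Pcgf2 and Cbx7 lie inside the span of their genes, so each belongs to an internal start. That of Pcgf6 overlaps its gene's span in part. CACGTG occurred once in each of these windows and in that of Cbx8, which is 3 of the 8 genes, against 6.02% of all 32851 windows of the same length. CpG dinucleotides numbered 21 in the window of Bmi1 and 5 in that of Pcgf2, with a range of 5 to 30 over the 8 genes and a median of 6 over all windows. CACGTG itself holds a CpG, 7 of the 8 genes lay above that median, and the share of 6.02% was not matched for CpG. These matches describe the sequence and are no evidence of binding.

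Bmi1 had the clearest difference of the 9 genes, with higher signal in Ezh2cKO cells at both of its probe sets. Its brightest probe set (1417493_at) had signals of 3622 and 2963 in Ezh2cKO replicates 1 and 2, against 1899 and 1633 in WT replicates 1 and 2. Both Ezh2cKO arrays lay above both WT arrays, and the smallest ratio of any Ezh2cKO array to any WT array was 1.56. The group means were 3293 ± 466 in Ezh2cKO and 1766 ± 187 in WT (SD, n = 2 each), a ratio of means of 1.86. Its second probe set (1448733_at) had 2249 and 1535 in Ezh2cKO, against 956 and 864 in WT. Here too the genotypes did not overlap, with a smallest ratio of 1.61 and a ratio of means of 2.08. Both probe sets are annotated to the same transcript record, so they repeat the measurement of 1 gene and are not independent samples.

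**Figure D1:**
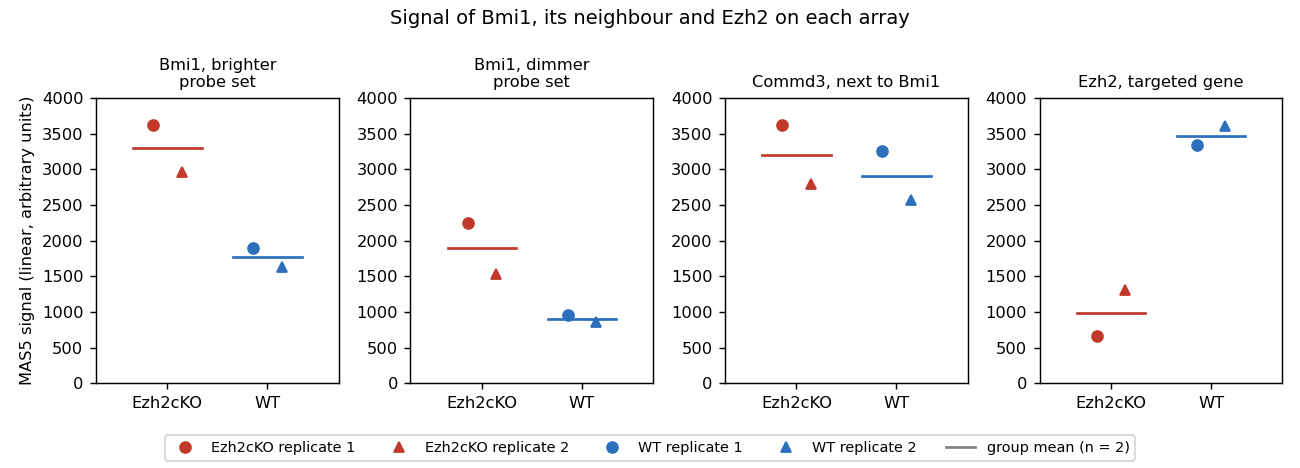
MAS5 signal (linear axis, arbitrary units) on each of the 4 arrays, with Ezh2cKO in red at the left and WT in blue at the right of each panel. Circles are replicate 1, triangles replicate 2 and lines the mean of 2 arrays. Both Bmi1 probe sets lie higher in both Ezh2cKO arrays (2963 and 3622, and 1535 and 2249) than in both WT arrays, the neighbouring gene Commd3 overlaps between the genotypes, and Ezh2 is lower in both Ezh2cKO arrays.

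The difference of Bmi1 was similar within the replicate numbers. Ezh2cKO was 1.91-fold above WT within number 1 and 1.81-fold within number 2 by the brightest probe set, and 2.35-fold and 1.78-fold by the second. On the log2(signal + 16) scale the difference was 0.89 (SE 0.19, 95% confidence interval 0.42 to 1.36) for the first and 1.02 (SE 0.24, interval 0.41 to 1.63) for the second. In limma the unadjusted p was 0.00402 and 0.00693, which ranked 6 and 13 among 27022 probe sets, but the adjusted p was 0.999979 for both. No probe set of the array passed an adjusted p of 0.05 (0 of 27022, 0% called), and 91 (0.337%) were higher and 15 (0.0555%) lower in Ezh2cKO at an unadjusted p under 0.05. Of the 17 tested probe sets of the 9 genes, 2 were higher and 0 lower at that level, both of them from Bmi1. The same 2 were also the only ones at least 1.5-fold higher whichever Ezh2cKO array was set against whichever WT array (4 pairs), a rule that 69 of all tested probe sets (0.255%) met.

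Leaving out 1 array at a time kept the Bmi1 log2 difference between 0.75 (without Ezh2cKO replicate 1) and 1.03 (without Ezh2cKO replicate 2), and limma's adjusted p between 0.453 and 1. Such a fit has 1 genotype with a lone array. Its p-value takes each probe set's own spread from the other genotype alone, a spread that limma pools with that of all tested probe sets. When each array was scaled to a common median, the log2 difference was 0.87 but the genotypes overlapped and the unadjusted p was 0.229. That scaling multiplies the arrays numbered 1 by more than those numbered 2, since their medians were 87.4 and 91.6 against 148 and 137. Of the 7 suprabasal markers, Flg, Ivl and Lor had both Ezh2cKO arrays above the WT arrays while the other 4 overlapped, and the endothelial sum was low on Ezh2cKO replicate 1 alone. Their part in the Bmi1 difference was not tested. Ezh2cKO replicate 1 was also the array with low Xist, whose part was not tested either. Leaving this array out gave the 0.75 above, the lowest Bmi1 difference of all settings. That fit cannot decide on these signals, because Ezh2cKO replicate 2 alone then stands for its genotype.

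Commd3, the protein-coding gene that ends 786 bases before the start of Bmi1 and is transcribed on the same strand, had 3616 and 2798 in Ezh2cKO, against 3250 and 2571 in WT. The groups overlapped, and the log2 difference was 0.14 (limma unadjusted p = 0.539). The array number separated Commd3 more than the genotype did, with the arrays numbered 1 higher in both groups. The neighbour on the other side, Gm46725, was not measured under a single symbol. Of the other measured neighbours, apart from Cbx8 itself, only M6pr next to Phc1 was separated, where 8.55% of all genes were higher and 8.45% lower. M6pr was lower in both Ezh2cKO arrays, at 3868 and 3515 against 4190 and 3895 in WT. Its log2 difference was -0.13 (limma unadjusted p = 0.415), and the groups overlapped under common median scaling.

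The 5 genes whose pattern over the 4 arrays came closest to that of Bmi1, by Euclidean distance between log2 values centred on each gene's mean, were Arhgap44, Cldn7, Pkp2, Sema3e and C130021I20Rik. Their distances were 0.11 to 0.16. Cldn7, a claudin of epithelial cell contacts, had 472 and 350 in Ezh2cKO, against 243 and 188 in WT. Pkp2, a plakophilin of desmosomes, had 211 and 178 in Ezh2cKO, against 101 and 98.3 in WT. Likeness over 4 arrays of 2 genotypes is a description only.

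The other 2 Pcgf genes did not share the size of the Bmi1 difference. Pcgf2 had 545 and 847 in Ezh2cKO replicates 1 and 2, against 507 and 663 in WT. The genotypes overlapped, and in both of them the array numbered 2 was the higher one. The log2 difference was 0.22 (95% confidence interval -0.53 to 0.97), with -0.09 when Ezh2cKO replicate 2 was left out, and its second probe set, at 280 and 295 in Ezh2cKO and 258 and 286 in WT, gave 0.08. Pcgf6 is a subunit of a variant PRC1 that lacks the Cbx proteins of canonical PRC1 and binds with Mga and Max. Its brightest probe set had 1290 and 779 in Ezh2cKO, against 976 and 919 in WT. The 2 Ezh2cKO arrays lay on either side of the WT arrays, with log2 differences of 0.40 within number 1 and -0.24 within number 2. Over all arrays it was 0.08 (interval -0.63 to 0.79) and -0.28 without Ezh2cKO replicate 1. Its other tested probe sets gave 0.13 and -0.03, so Pcgf6 was the 1 gene of 6 with several tested probe sets whose probe sets differed in sign. Bmi1, Pcgf2 and Pcgf6 were not tested against each other.

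**Figure D2:**
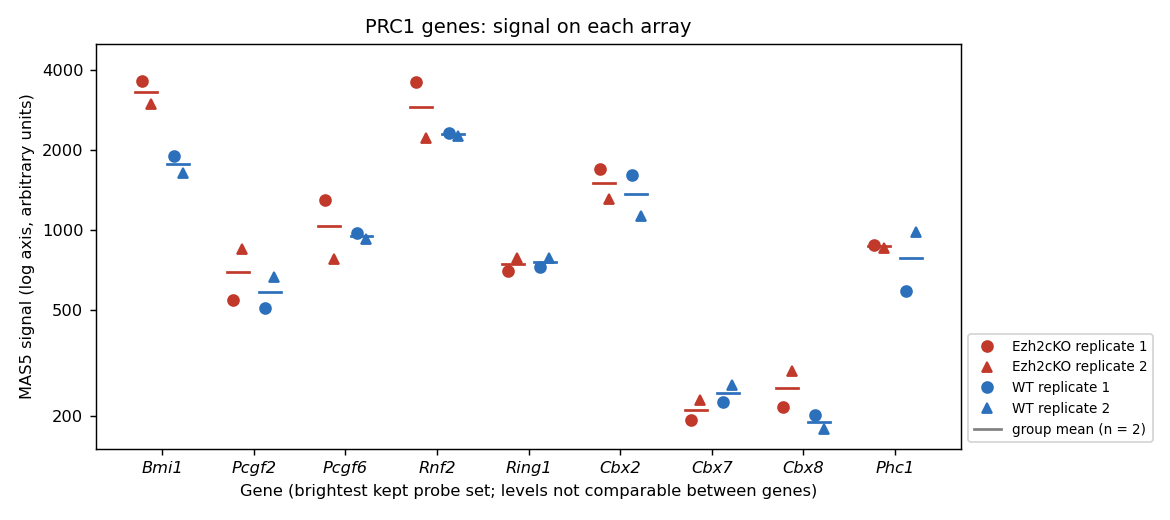
MAS5 signal (log axis, arbitrary units) of the brightest tested probe set of each of the 9 genes, Ezh2cKO in red left of WT in blue. Circles are replicate 1, triangles replicate 2 and short lines the mean of 2 arrays. Bmi1 and Cbx8 have both Ezh2cKO arrays above both WT arrays, and the other 7 genes overlap.

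Neither RING ligase gene was separated between the genotypes by its brightest probe set, but Rnf2 was under quantile normalization (log2 difference 0.31). Rnf2 (Ring1B), the main H2A ubiquitin ligase of PRC1, had 3588 and 2217 in Ezh2cKO, against 2312 and 2257 in WT. Ezh2cKO replicate 1 stood above the other 3 arrays, which lay close together. The log2 difference was 0.63 within number 1 and -0.03 within number 2, 0.30 over all arrays (interval -0.34 to 0.95) and -0.04 without Ezh2cKO replicate 1. A second bright probe set of Rnf2 had 1628 and 1803 in Ezh2cKO, against 1527 and 1647 in WT, a log2 difference of 0.11, and did not have the high value of Ezh2cKO replicate 1. The remaining tested probe set of Rnf2 had 101 and 142 in Ezh2cKO, against 93.3 and 133 in WT, a log2 difference of 0.09. Ring1 (Ring1A), its paralog, had 702 and 785 in Ezh2cKO, against 727 and 785 in WT. The groups overlapped almost fully, with a log2 difference of -0.02 (interval -0.53 to 0.48), which was 0.05 without Ezh2cKO replicate 1 and 0.03 without WT replicate 2.

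Of the Cbx genes, Cbx8 was higher in both Ezh2cKO arrays, at 216 and 293, against 201 and 177 in WT. The lower Ezh2cKO array exceeded the higher WT array by a ratio of 1.08. The log2 difference was 0.10 within number 1 and 0.68 within number 2, and 0.39 over all arrays (SE 0.31, interval -0.39 to 1.17, limma unadjusted p = 0.263). Leaving out Ezh2cKO replicate 2 gave 0.18 and leaving out Ezh2cKO replicate 1 gave 0.60, and under common median scaling the groups overlapped. Cbx2, which lies 5027 bases from Cbx8 on chromosome 11, had 1692 and 1304 in Ezh2cKO, against 1613 and 1123 in WT. Its arrays numbered 1 were the higher ones in both genotypes, with a genotype difference of 0.14 on the log2 scale (interval -0.50 to 0.78), -0.04 without Ezh2cKO replicate 1 and -0.12 without WT replicate 2. Its dimmer probe set had the opposite order of the numbers, with 58.3 and 132 in Ezh2cKO and 55.2 and 115 in WT, and a genotype difference of 0.12. The dimmer tested probe sets of Pcgf6 and Rnf2 also had the opposite order to their brightest, while those of Bmi1, Pcgf2 and Cbx7 kept it.

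Cbx7, the chromodomain subunit that predominates in embryonic stem cells, was the 1 gene of the 9 with lower signal in Ezh2cKO within both numbers. It had 192 and 228 in Ezh2cKO, against 224 and 261 in WT. The groups overlapped, since Ezh2cKO replicate 2 exceeded WT replicate 1. The log2 differences were -0.21 and -0.18 within numbers 1 and 2, and -0.20 over all arrays (interval -0.93 to 0.54). Leaving out Ezh2cKO replicate 1 gave -0.080 and leaving out WT replicate 2 gave -0.092, while the other 2 arrays gave -0.31 (Ezh2cKO replicate 2) and -0.30 (WT replicate 1) when left out, and under quantile normalization both Ezh2cKO arrays lay below the WT arrays. Its second tested probe set gave -0.22 from signals of 56.0 and 109 in Ezh2cKO and 73.3 and 121 in WT.

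Phc1, a sterile alpha motif protein, had 879 and 857 in Ezh2cKO, against 590 and 980 in WT. The Ezh2cKO arrays lay between the 2 WT arrays, so the log2 difference was 0.56 within number 1 and -0.19 within number 2. It was 0.19 over all arrays (interval -0.54 to 0.91) and -0.17 without WT replicate 1. Over the 8 genes other than Bmi1, unadjusted p ranged between 0.263 and 0.906, and the 95% confidence intervals reached from -0.93 to 1.17. Such intervals include an increase of the size seen in Bmi1 for 4 of these genes (Pcgf2, Rnf2, Cbx8 and Phc1). For Cbx7 the interval includes a decrease of that size. A p above the threshold therefore does not show that the genotypes were equal.

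**Figure D3:**
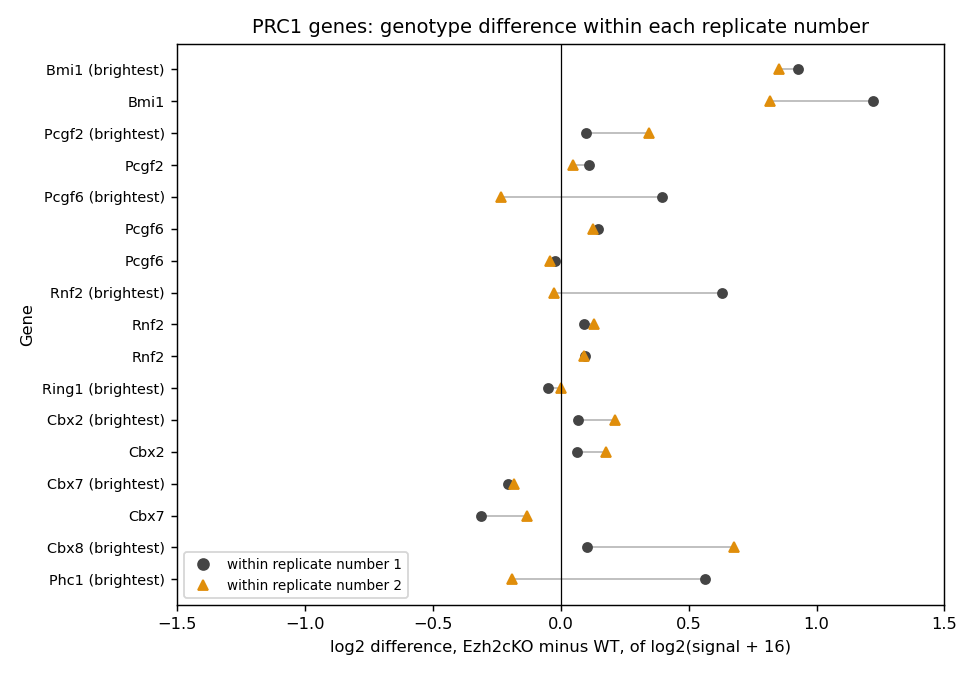
Ezh2cKO minus WT difference of log2(signal + 16) for the 17 tested probe sets (horizontal axis), computed within replicate number 1 (dark circles) and number 2 (orange triangles), each from 1 array per genotype. Both Bmi1 probe sets lie at 0.82 or above in both numbers, while the brightest probe sets of Pcgf6, Rnf2 and Phc1 lie on both sides of 0.

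Counted over the 9 genes by their brightest tested probe set, 2 (Bmi1 and Cbx8) had both Ezh2cKO values above the WT values and 0 had both below. Of all 12789 genes with a tested probe set, 1093 (8.55%) were higher in this way and 1081 (8.45%) lower. By probe sets, 3 of the 17 were higher and 0 lower, where 7.29% and 7.31% of all tested probe sets were. Within both numbers, 4 of the 9 genes were on the higher side in Ezh2cKO, namely Bmi1, Pcgf2, Cbx2 and Cbx8, and 1, Cbx7, was on the lower side, where 25.2% and 25.6% of all genes were. The median log2 difference of the 9 genes was 0.19, with 0.10 within number 1 and 0.0007 within number 2, and the median over all genes was -0.004. The count of separated genes depended on single arrays. It was 4 higher and 2 lower without Ezh2cKO replicate 1, 5 and 2 without Ezh2cKO replicate 2, 3 and 2 without WT replicate 1, and 4 and 0 without WT replicate 2, where a lone array makes separation easier to reach.

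The replicate number accounted for more of the spread in most of these genes than the genotype. The absolute log2 difference between the arrays numbered 1 and those numbered 2 exceeded the genotype difference in 7 of the 9 genes, and in 76.3% of all genes. The exceptions were Bmi1 (0.89 by genotype, 0.25 by number) and Cbx8 (0.39 by genotype, -0.12 by number). Of the 9 genes, 4 were higher and 3 lower on the arrays numbered 1 in both genotypes, against 42.2% and 35.7% of all genes. Of the 2975 tested probe sets at least 2-fold apart between the numbers, 2815 were lower on the arrays numbered 1. What the numbers stand for is not given in the sources used here.

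**Figure D4:**
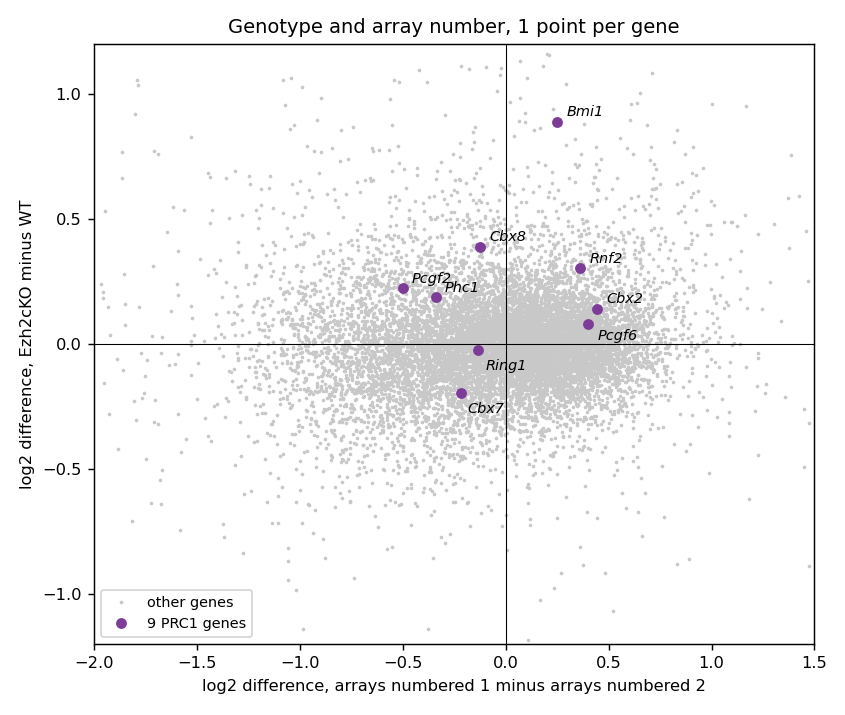
Difference between genotypes (vertical axis, Ezh2cKO minus WT) and between array numbers (horizontal axis, number 1 minus number 2), both on the log2(signal + 16) scale, with 1 grey point per gene and the 9 PRC1 genes in purple. Bmi1 stands highest of the 9 at 0.89, Cbx8 follows at 0.39, and the other 7 lie between -0.20 and 0.30 on the vertical axis; 93 genes lie outside the plotted range.

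Other PRC1 genes were covered by a list of 22, of which 20 were measured under a single symbol and all 20 passed the filter. It holds the remaining Pcgf, Cbx and Phc genes and the subunits of variant PRC1, such as Kdm2b, which brings a variant complex to CpG islands, and Yaf2. None passed limma's adjusted threshold (0 of 20), and the log2 differences lay between -0.26 and 0.29 with a median of 0.05. Max and Mga, the DNA-binding partners of the Pcgf6 complex, were higher in both Ezh2cKO arrays, and Cbx6 was lower in both. Max had 310 and 259 in Ezh2cKO, against 207 and 252 in WT. Mga had 535 and 607 in Ezh2cKO, against 504 and 530 in WT, while 2 further tested probe sets of Mga gave log2 differences of -0.38 and 0.003. Cbx6 had 4637 and 4663 in Ezh2cKO, against 5033 and 4905 in WT, and its second probe set was also lower in both arrays, at 4179 and 4058 against 5200 and 4471. For Max and Cbx6 the groups overlapped by the brightest probe set under quantile normalization, and for Max, Mga and Cbx6 under common median scaling. The shares separated, 2 of 20 higher and 1 of 20 lower, stand beside 8.55% and 8.45% of all genes.

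The list of 6 genes for removal of the H2A ubiquitin mark, among them the deubiquitinase Bap1 and its partner Asxl1, had 6 measured members. Their log2 differences were between -0.06 and 0.14 with a median of 0.08, and 0 were separated in either direction. Bap1 had 1977 and 1608 in Ezh2cKO, against 1759 and 1481 in WT, with overlapping groups.

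**Figure D5:**
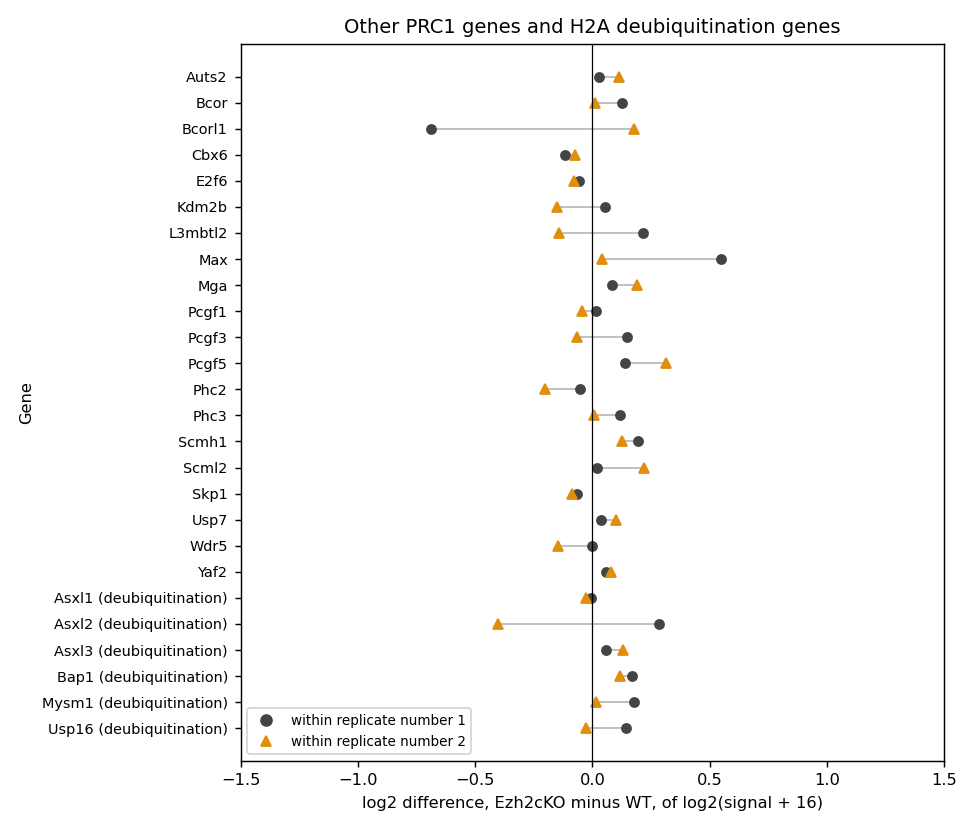
Ezh2cKO minus WT difference of log2(signal + 16) within replicate number 1 (dark circles) and number 2 (orange triangles) for the 20 other PRC1 genes and the 6 H2A deubiquitination genes, 1 probe set per gene. Over both numbers together the differences lie between -0.26 and 0.29, below the 0.89 of Bmi1.

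Of the textbook targets of PRC1 at the Ink4 locus, Cdkn2b, which encodes the cell cycle inhibitor p15, had 308 and 219 in Ezh2cKO, against 124 and 112 in WT. The groups did not overlap, and the log2 difference was 1.04 (limma unadjusted p = 0.0249, adjusted p = 0.999979). Cdkn2a, the target through which Bmi1 acts in stem cells, had 26.3 and 48.4 in Ezh2cKO, against 23.1 and 19.5 in WT. Both Ezh2cKO arrays were higher, but all 4 values lay below the filter's level of 68.2 and were not tested.

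The 4 probe sets of the 9 genes that did not pass the filter, 2 of Rnf2 and 1 each of Cbx7 and Cbx8, had signals of at most 38.8 on any array. The dim Cbx7 probe set had 16.6 and 16.9 in Ezh2cKO, against 5.9 and 8.9 in WT, an order opposite to that of the 2 brighter Cbx7 probe sets. One dim Rnf2 probe set was also higher in both Ezh2cKO arrays, at 32.8 and 38.8 against 9.9 and 24.5 in WT. The other dim Rnf2 probe set overlapped, with 5.2 and 13.5 in Ezh2cKO and 6.5 and 7.4 in WT. The dim Cbx8 probe set overlapped too, with 1.3 and 7.1 in Ezh2cKO and 4.1 and 7.3 in WT. No detection calls were used, so whether these values lay above background is not known.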

How the data were processed

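The deposited values are MAS5 signal intensities on a linear scale, 1 per probe set and array, made by the authors per the submitters' processing notes, which give no version. Each array's mean, after trimming 2% at each end, was about 500.0, so the authors' scaling was kept. Levels were not compared between probe sets. Setting aside 64 control probe sets left 45037, of which 34945 had 1 symbol in the platform annotation, 932 several and 9160 none. Of the first, 34741 were matched by gene identifier to the RefSeq gene table (GRCm38.p6).

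Values were transformed as log2(signal + 16), which understates differences of dim genes. Probe sets in the upper 60% by mean log2 value (a level of at least 68.2) were tested for Ezh2cKO against WT with limma 3.58.1 in R 4.3.3 (intensity trend, no block, Benjamini-Hochberg over 27022 probe sets, threshold 0.05). The fit was tested on simulated data with noise independent between arrays. That test does not cover same-numbered arrays that deviate together, as they did here. A gene was represented by its brightest tested probe set and counted as separated when its Ezh2cKO and WT values did not overlap. With 2 arrays per group an exact permutation test cannot go below p = 0.333. The number of arrays limits the precision.

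Named were all 9 genes with their probe sets, Ezh2, separated members of the other lists, Cdkn2a and Cdkn2b, neighbours, and the 5 genes most like Bmi1. Bap1, Cldn7 and Pkp2 were picked out of those groups as examples. Members and lists were chosen with earlier results of these data known. The fit was repeated with a pseudocount of 1 or 64, without the filter or with the upper 40%, after quantile or median scaling, with a replicate block, without the trend, with probe sets averaged per gene, and without each array in turn.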

Additional observations from a re-analysis of the deposited data

How the results depend on the processing

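Over 13 alternatives, the Bmi1 log2 difference stayed above 0, between 0.75 and 1.03 when an array was left out and between 0.87 and 0.95 in the other 9, and its adjusted p stayed above 0.05 in all 13. The replicate number as a block gave Bmi1 an unadjusted p of 2.65e-05 and an adjusted p of 0.0702, with 6 probe sets called in place of 0, Ezh2 among them (log2 -1.88, adjusted p 0.0385). Same-numbered arrays deviated together from their group means (r = 0.76 over the kept probe sets), but the sources used here do not say that the numbers mark a shared litter or day, so they share only a number. Common median scaling called 2 probe sets and left 1 of the 9 genes separated upwards, Pcgf2 and not Bmi1, and quantile normalization left 3 separated upwards, Rnf2 added, and 1 downwards, Cbx7. With an array left out, which leaves 1 genotype with a lone array assumed to vary like the others, 0 to 52 probe sets were called (16 without Ezh2cKO replicate 2 and 52 without WT replicate 2), 3 to 5 of the 9 genes were separated upwards and 0 to 2 downwards, and the Ezh2 difference was -2.36 to -1.40. The log2 difference changed sign only with an array left out, where it ranged from -0.12 to 0.40 for Cbx2, -0.088 to 0.53 for Pcgf2, -0.28 to 0.44 for Pcgf6, -0.17 to 0.54 for Phc1, -0.10 to 0.055 for Ring1 and -0.042 to 0.65 for Rnf2. Within these ranges, Cbx2 also had -0.045 without Ezh2cKO replicate 1 and Ring1 0.029 without WT replicate 2. Cbx7 and Cbx8 kept their sign in all 13. The causes were not tested.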
